A study of Arabidopsis thaliana with 12 samples.

Results

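WRKY6, WRKY53 and SAG101 are 3 Arabidopsis genes known as regulators of leaf senescence. Each was measured by 1 probe set on an Affymetrix array, out of 22746 non-control probe sets in all. They were taken as the probe sets that the array annotation gives exactly 1 gene with one of these symbols, which 13513 probe sets fulfil for any gene. The loci are AT1G62300 for WRKY6, AT4G23810 for WRKY53 and AT5G14930 for SAG101.

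By its title, the series addresses how the capacity of the hypocotyl, the seedling stem, for making callus differs between ages. All plants were of the Col-0 ecotype and grew on full-strength MS medium. The 4 groups had 3 arrays each, labelled as biological replicates: 35-day-old hypocotyls with auxin for 1 day, 35-day-old hypocotyls without auxin, 7-day-old hypocotyls with auxin for 1 day, and 7-day-old hypocotyls without auxin. The labels name neither the auxin nor its dose, and they leave the handling of untreated hypocotyls during that day unstated. Changes with auxin below are differences from the untreated groups, and the part of that handling in them was not tested.

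Leaf senescence is the ordered breakdown of a leaf, in which chlorophyll and proteins are taken apart and their nutrients moved elsewhere. WRKY proteins are plant transcription factors that bind a short DNA element called the W box. WRKY6 is active in senescence, defence and the phosphate response, and WRKY53 acts early in leaf senescence and promotes it. SAG101 is a lipase-like protein that was described as an acyl hydrolase of senescing leaves and that also forms immune complexes with EDS1.

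Values are log2 expression relative to the median of the same probe set over the 12 arrays, as deposited. They show differences between arrays for 1 gene, and cannot rank the genes by level. In whole hypocotyls, a change in the share of cells that hold a transcript cannot be told apart from a change per cell. Both WRKY genes were lowest in untreated 7-day hypocotyls and highest with auxin, at both ages. SAG101 was highest in untreated 35-day hypocotyls, and with auxin it was higher at 7 days and lower at 35 days.

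**Figure D1:**
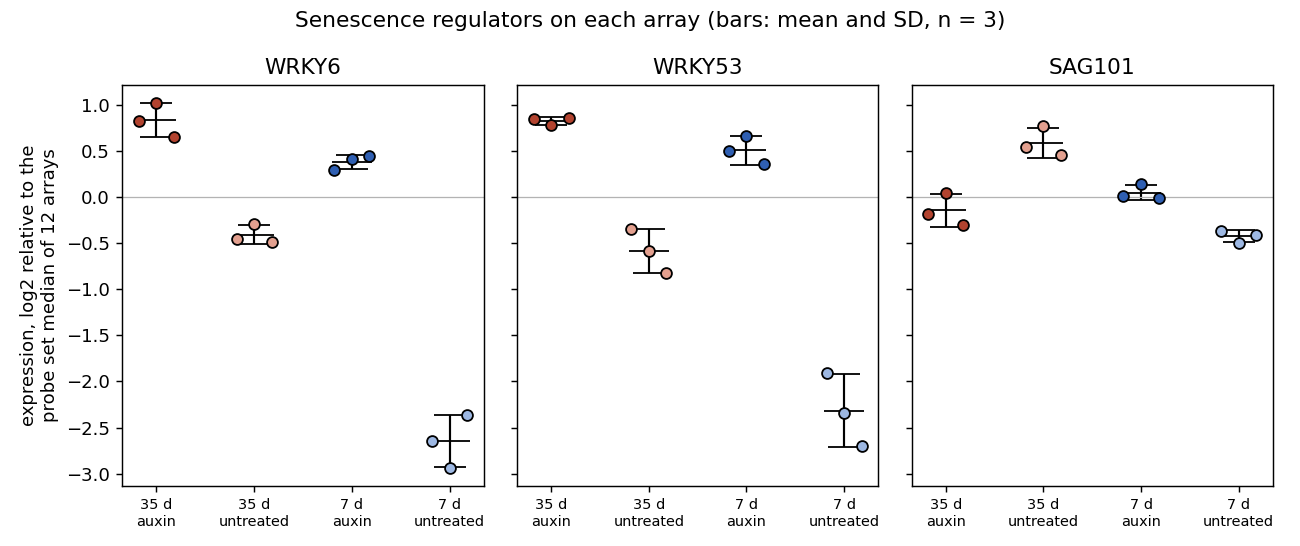
Log2 expression (vertical axis, relative to the probe set's median of 12 arrays) of each gene in the 4 groups; points are arrays, and bars are the mean and SD of 3 arrays. WRKY6 and WRKY53 share the order of the 4 groups, with untreated 7-day hypocotyls lowest, while SAG101 peaks in untreated 35-day hypocotyls at a mean of 0.59.

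WRKY6 stood at 0.83, 1.02 and 0.65 in 35-day hypocotyls with auxin, and at −0.45, −0.30 and −0.48 in untreated 35-day hypocotyls. In 7-day hypocotyls it stood at 0.30, 0.41 and 0.44 with auxin and at −2.64, −2.93 and −2.36 without. No group overlapped another, and the untreated 7-day arrays lay far below all others.

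WRKY53 had values of 0.84, 0.77 and 0.86 in 35-day hypocotyls with auxin and of −0.35, −0.59 and −0.82 in untreated ones. At 7 days the values were 0.50, 0.66 and 0.35 with auxin, against −1.91, −2.34 and −2.71 without. The groups again did not overlap, and the untreated 7-day arrays spread more (SD 0.40, n = 3) than the 35-day arrays with auxin (SD 0.04, n = 3).

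SAG101 covered a narrower range. It was at −0.18, 0.05 and −0.30 in 35-day hypocotyls with auxin and at 0.54, 0.76 and 0.45 in untreated ones. The 7-day values were 0.01, 0.14 and −0.01 with auxin, against −0.37, −0.50 and −0.41 without. The 2 auxin groups overlapped, and no other pair of groups did. Over all probe sets, groups did not overlap in 64.5% for auxin at 35 days, 64.5% for auxin at 7 days, 53.4% for age without auxin, 40.7% for age with auxin, 65.6% for 35 days with auxin against 7 days untreated, and 66.7% for 35 days untreated against 7 days with auxin.

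The first question was how hypocotyls with 1 day of auxin differed from untreated ones at each age. In 7-day hypocotyls all 3 genes rose, where 32.7% of the 22746 probe sets were called higher. In limma's test with Benjamini-Hochberg adjustment over all probe sets, WRKY6 was 8.16-fold higher with auxin (log2 fold change 3.03 ± 0.13 SE, n = 3 per group, adjusted p = 1.3e-10). WRKY53 was 7.06-fold higher (2.82 ± 0.17, limma adjusted p = 3.3e-09). SAG101 was 1.39-fold higher (0.47 ± 0.10, limma adjusted p = 0.0013). Larger log2 fold changes than that of WRKY6 were found in 1.24% of probe sets and than that of WRKY53 in 1.49%, so both lay near the top of the array. For SAG101 the share was 25.2%.

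In 35-day hypocotyls both WRKY genes rose, where 31.8% of probe sets were called higher, and SAG101 fell, where 28.1% were called lower. With auxin, WRKY6 was 2.36-fold higher (1.24 ± 0.13 SE over 3 arrays per group, limma adjusted p = 1.4e-06). WRKY53 was 2.66-fold higher (1.41 ± 0.17, limma adjusted p = 4.7e-06). SAG101 was 1.66-fold lower (−0.73 ± 0.10, limma adjusted p = 2.8e-05). With 2 commonly used reference genes, GAPC2 and PEX4, set equal between arrays, the SAG101 changes were −0.39 at 35 days and 0.83 at 7 days, with the same directions and calls. Both reference genes themselves had lower values with auxin, by −0.50 (GAPC2) and −0.19 (PEX4, not called) at 35 days and −0.29 and −0.42 at 7 days. That scaling moved the median of all probe sets by 0.34 at 35 days and by 0.36 at 7 days, and it turned the split of calls with auxin into 14576 higher and 4380 lower at 35 days (7235 and 6397 as deposited) and into 14575 higher and 3963 lower at 7 days (7441 and 5999 as deposited).

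**Figure D2:**
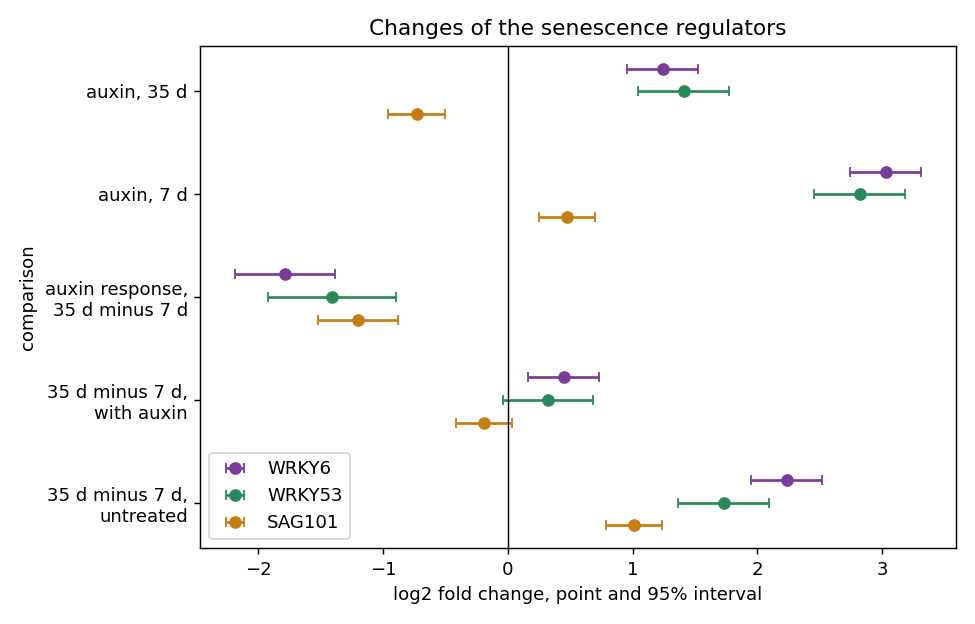
Log2 fold changes (horizontal axis) of the 3 genes in 5 comparisons, with 95% intervals from the limma fit over 12 arrays. The difference of the auxin responses lies below 0 for all 3 genes. The age differences are larger without auxin than with it, which is the same contrast and no second result.

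The auxin response was then compared between ages. It was lower at 35 days than at 7 days for all 3 genes, where 17.5% of probe sets were called so. The difference on the log2 scale was −1.79 ± 0.19 (SE) for WRKY6 (limma adjusted p = 6.9e-06, n = 3 per group), −1.41 ± 0.24 for WRKY53 (limma adjusted p = 3.9e-04) and −1.20 ± 0.15 for SAG101 (limma adjusted p = 2.9e-05). For the WRKY genes this was a smaller rise at 35 days, and for SAG101 a fall in place of a rise. A rise at both ages, a smaller response at 35 days and a higher level at 35 days without auxin were found together in 683 probe sets (3.00%), among them WRKY6 and WRKY53. A rise at 7 days and a fall at 35 days were found in 505 probe sets (2.22%), among them SAG101, and 439 probe sets (1.93%) were in addition higher at 35 days without auxin, with a called difference of responses. For the 683 and the 439 probe sets, 3 of the conditions share the untreated 7-day arrays. These are the rise at 7 days, the higher level at 35 days without auxin and the difference of responses. They are not independent, so the shares are not those of separate traits.

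**Figure D3:**
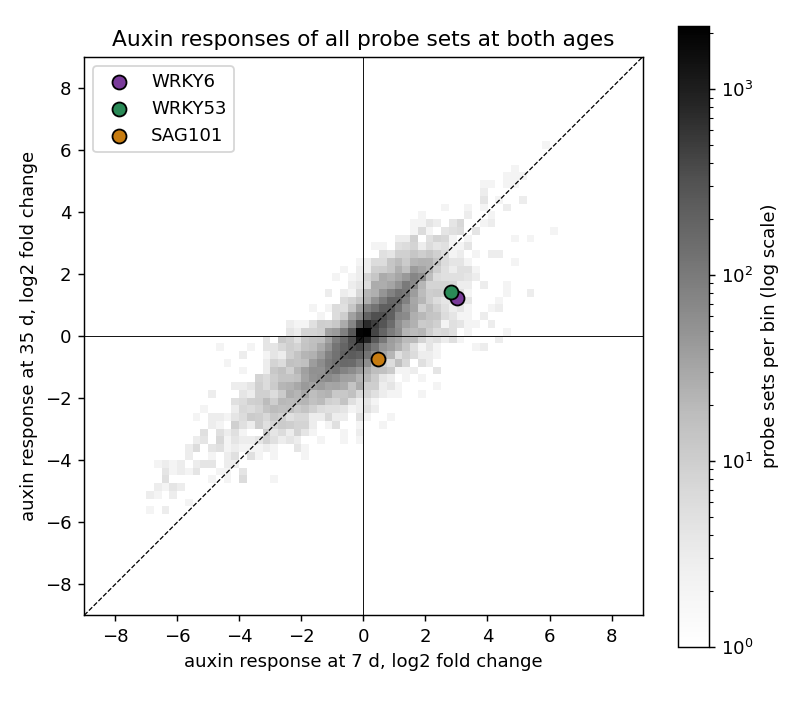
Auxin response at 35 days (vertical axis) against that at 7 days (horizontal axis), both as log2 fold changes; grey bins count the 22746 probe sets on a log scale, the dashed line marks equal responses, and coloured points are the 3 genes. All 3 lie below the dashed line, the WRKY genes in the field of rises at both ages and SAG101 in that of a rise at 7 days and a fall at 35 days.

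The next question was how the genes differ with age. Without auxin all 3 were higher in 35-day than in 7-day hypocotyls, where 22.7% of probe sets were called higher (split of calls with reference genes set equal 6364 higher and 3942 lower, against 5171 and 5215 as deposited). WRKY6 was 4.71-fold higher (2.24 ± 0.13 SE, 3 arrays per group, limma adjusted p = 1e-08). WRKY53 was 3.32-fold higher (1.73 ± 0.17, limma adjusted p = 1.3e-06) and SAG101 2.02-fold higher (1.01 ± 0.10, limma adjusted p = 2.4e-06). Larger age differences were found in 1.78% of probe sets for WRKY6, 3.04% for WRKY53 and 7.07% for SAG101. This comparison and that of auxin at 7 days share the untreated 7-day arrays.

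With auxin the age differences were small. Their difference from those without auxin equals the difference of the auxin responses above, so it is no second result. WRKY6 was 1.36-fold higher at 35 days (0.45 ± 0.13 SE, 3 arrays per group, limma adjusted p = 0.021), where 14.2% of probe sets were called higher (split with reference genes set equal 4600 higher and 2271 lower, against 3239 and 2967 as deposited). That call ended without array 1 of the 35-day group with auxin (0.45, limma adjusted p = 0.0505), without its array 2 (0.36, limma adjusted p = 0.0968) and without array 1 of the 7-day group with auxin (0.40, limma adjusted p = 0.0768). WRKY53 differed by 0.32 ± 0.17 (95% interval −0.04 to 0.68, limma adjusted p = 0.2) and SAG101 by −0.19 ± 0.10 (95% interval −0.42 to 0.03, limma adjusted p = 0.22), and neither was called. The 2 groups did not overlap in WRKY53, as in 40.7% of probe sets, and a fit of the 6 auxin arrays alone called it (limma adjusted p = 0.0357).

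The order of the 4 groups followed from these and the remaining pairs. WRKY6 was highest at 35 days with auxin, then at 7 days with auxin, then in untreated 35-day and last in untreated 7-day hypocotyls. Untreated 35-day hypocotyls lay below 7-day hypocotyls with auxin by −0.79 ± 0.13 in WRKY6 (limma adjusted p = 1.1e-04) and by −1.09 ± 0.17 in WRKY53 (limma adjusted p = 5.6e-05), where 32.8% of probe sets were called lower. WRKY53 had the same order of means, with no called difference between the 2 auxin groups.

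SAG101 was highest in untreated 35-day hypocotyls, by 0.54 ± 0.10 over 7-day hypocotyls with auxin (limma adjusted p = 4.4e-04), where 27.9% of probe sets were called higher. With reference genes set equal this gap was 0.28 (limma adjusted p = 0.0297). The 2 auxin groups came next with no called difference, and untreated 7-day hypocotyls were lowest. The gap of 0.28 ± 0.10 between 35-day hypocotyls with auxin and untreated 7-day hypocotyls was called (limma adjusted p = 0.032), as were 34.4% of probe sets in that direction. It was no longer called without array 2 of the 35-day auxin group (0.18, limma adjusted p = 0.161), without array 2 (0.24, limma adjusted p = 0.102) or 3 (0.29, limma adjusted p = 0.0563) of the untreated 7-day group, or with the arrays normalised again by quantiles (0.14, limma adjusted p = 0.276), and it was 0.72 with reference genes set equal (limma adjusted p = 2.86e-05). The place of SAG101 at 35 days with auxin relative to its lowest group therefore rests on few arrays and on the scaling.

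Some array signals moved with the groups. The bioC spike-in, a control of bacterial origin, lay between −1.61 and −1.43 on arrays 1 and 2 of both untreated groups, and between −0.20 and 0.70 on the other 8 arrays. Leaving out those 4 arrays leaves 1 in each untreated group, whose spread is then taken from the auxin groups. The auxin changes at 35 days were then 1.32 for WRKY6, 1.64 for WRKY53 and −0.59 for SAG101, and those at 7 days 2.75, 3.21 and 0.45. The age differences without auxin were 1.88, 1.88 and 0.86, and the differences of the auxin response −1.43, −1.56 and −1.05. All 12 values kept their direction and their call. The 25S ribosomal RNA control was between 1.06 and 1.35 in 35-day hypocotyls with auxin, against −2.46 to −1.06 in untreated ones, and between 1.77 and 2.5 at 7 days with auxin, against −2.56 to −1.06 without. The GAPDH control, read as its 3′ minus its 5′ probe set, a measure of RNA quality, lay between −0.18 and −0.11 in 35-day hypocotyls with auxin, against 0.13 to 0.21 in untreated ones, and between −0.18 and 0.03 at 7 days with auxin, against 0.33 to 0.51 without. It thus separated auxin from untreated arrays at both ages, and the ages without auxin. The part of the 25S and GAPDH signals in the results was not tested.

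Tissue markers moved as well. Of 18 green tissue genes listed, 5 had a probe set of their own, RCA, LHCB4.2, PSAN, PRK and SBPASE, and all 5 fell with auxin at both ages and were lower at 35 days without auxin. Over all probe sets, 28.1% were called lower with auxin at 35 days, 26.4% at 7 days, and 22.9% with age without auxin. Their mean value per array lay between −2.83 and −2.5 at 35 days with auxin, against 2.33 to 3.05 in untreated 35-day hypocotyls, and between −2.88 and −2.60 at 7 days with auxin, against 4.36 to 4.51 in untreated 7-day hypocotyls. The sugar transporter gene SWEET11, the 1 measured gene of 15 phloem genes, changed by −3.60 ± 0.19 at 35 days and −5.59 ± 0.19 at 7 days with auxin. GUT2, a gene of xylan synthesis and the 1 measured of 18 xylem genes, changed by −0.82 ± 0.11 at 35 days with auxin and by −0.21 ± 0.11 at 7 days, which was not called (limma adjusted p = 0.12). Without auxin, SWEET11 (−2.25) and GUT2 (−0.48) were also called lower at 35 than at 7 days. The GUT2 value was −0.30 with the 4 low-bioC arrays left out, and that call was lost. The age difference with auxin was −1.10 in GUT2, called lower, and −0.26 in SWEET11, not called. No gene of the lists for epidermis and root had a probe set of its own as annotated, and absolute marker levels are not kept in these values. The part of tissue make-up in the results was not tested.

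Of the WRKY family, 4 other genes were annotated under a WRKY symbol. WRKY47, which belongs to the same subgroup as WRKY6, had a pattern like it except in the order of the middle groups. Where WRKY6 was lower in untreated 35-day than in 7-day hypocotyls with auxin, WRKY47 had close means there, 0.02 and −0.06. It stood at 0.80, 0.67 and 0.49 in 35-day hypocotyls with auxin, against 0.04, −0.04 and 0.06 in untreated ones. At 7 days it stood at 0.15, −0.09 and −0.23 with auxin, against −1.99, −1.91 and −1.84 without. It rose with auxin at 35 days (0.63 ± 0.11 SE, 3 arrays per group, limma adjusted p = 1.1e-04) and at 7 days (1.86 ± 0.11, limma adjusted p = 1.9e-09), with a difference of −1.23 ± 0.15 between ages (limma adjusted p = 2.6e-05). Across the 12 arrays, which fall into 4 groups, its Pearson correlation was 0.960 with WRKY6, 0.919 with WRKY53 and 0.505 with SAG101. WRKY6 and WRKY53 had a correlation of 0.969 with each other, against 0.412 for WRKY6 and 0.307 for WRKY53 with SAG101.

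WRKY42, also of the WRKY6 subgroup and known to act with WRKY6 in the phosphate response, changed by 0.18 ± 0.10 at 35 days and −0.11 ± 0.10 at 7 days with auxin, neither called (limma adjusted p = 0.14 and 0.37). With reference genes set equal its change at 35 days was called (0.52, limma adjusted p = 6.8e-04), as it was without array 3 of the 35-day auxin group (0.26, limma adjusted p = 0.0433). WRKY22 differed in the opposite direction to WRKY6, WRKY53 and WRKY47. It was lower at 35 than at 7 days without auxin (−0.69 ± 0.18, limma adjusted p = 0.0058), a call lost with the 4 low-bioC arrays left out (−0.68, limma adjusted p = 0.0562). With auxin at 7 days it was lower by −0.54 ± 0.18 (limma adjusted p = 0.018), a call lost with reference genes set equal (−0.18, limma adjusted p = 0.365), with the 4 low-bioC arrays left out (−0.32, limma adjusted p = 0.19), and without array 1 of the untreated (−0.33, limma adjusted p = 0.0966) or array 3 of the auxin group (−0.44, limma adjusted p = 0.0782). At 35 days its change with auxin was 0.10 ± 0.18 and not called (limma adjusted p = 0.65), but it was called higher with reference genes set equal (0.45, limma adjusted p = 0.036). WRKY20 and ZAP1, which is also known as WRKY1 and was added after the annotation was seen, had values between −0.34 and 0.39 in the 5 comparisons, and their calls for auxin depended on the scaling or on single arrays. The subgroup of WRKY6 was therefore not uniform, with WRKY47 like WRKY6 in the direction of its auxin changes and WRKY42 far smaller in its changes.

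**Figure D4:**
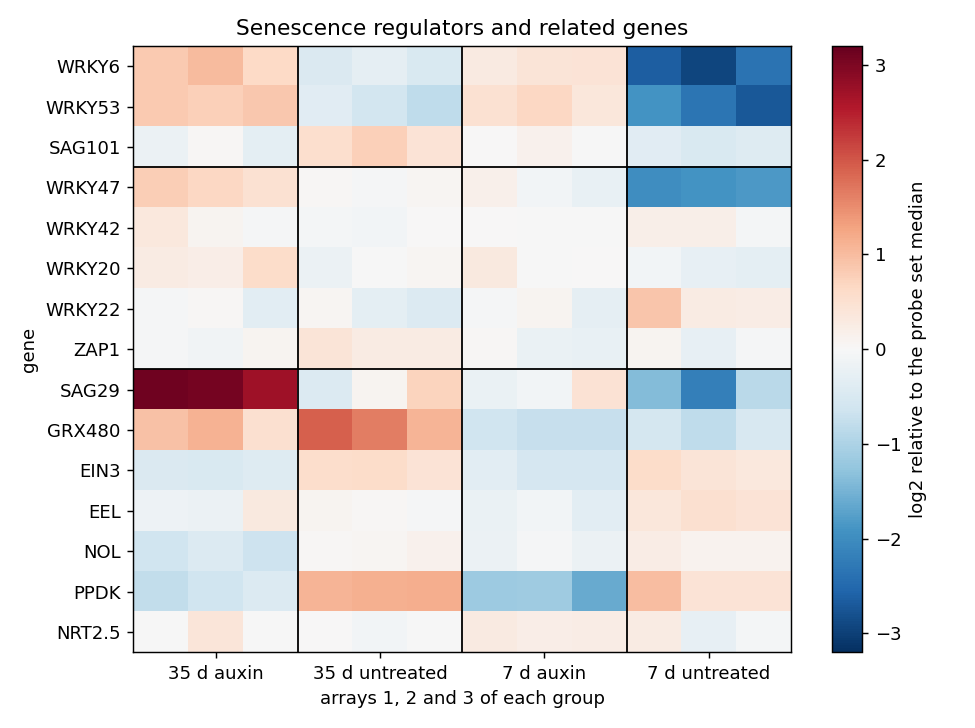
Log2 values relative to each probe set's median (colour) on the 12 arrays for the 3 regulators, 5 other WRKY genes and 7 further genes of senescence and remobilisation. WRKY6, WRKY53 and WRKY47 share blue (low) arrays in untreated 7-day hypocotyls, and SAG29 is highest at 35 days with auxin.

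Beyond the WRKY family, 8 lists with 178 genes of senescence, salicylic acid, chlorophyll breakdown and nutrient remobilisation were looked up, and 7 of these genes had a probe set of their own as annotated. EDS1 and PAD4, the partners of SAG101, were not among them. Together with the 4 WRKY genes, 3 of the 11 genes were called higher and 4 lower with auxin at 35 days. Over all probe sets, 31.8% were called higher and 28.1% lower there. At 7 days 3 were called higher and 5 lower, where 32.7% of probe sets were called higher and 26.4% lower. With age without auxin 4 were called higher and 2 lower, where 22.7% of probe sets were called higher and 22.9% lower. Their median log2 changes were 0.10, −0.11 and 0.08, against 0.06, 0.02 and −0.03 over all probe sets. Among the age calls without auxin, those of WRKY22, EEL (−0.40) and PPDK (0.52) were lost with the 4 low-bioC arrays left out. The EEL and PPDK values were then −0.47 and 0.73. Without array 2 of the untreated 7-day group EEL (−0.36, limma adjusted p = 0.0515) and PPDK (0.42, limma adjusted p = 0.071) were not called. Neither was PPDK without its array 3 (0.42, limma adjusted p = 0.0661).

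SAG29, also named SWEET15, encodes a sugar transporter whose transcript accumulates in senescing leaves. It stood at 3.11, 3.05 and 2.72 in 35-day hypocotyls with auxin, against −0.43, 0.09 and 0.71 in untreated ones. The 7-day values were −0.20, −0.09 and 0.46 with auxin and −1.38, −2.19 and −0.87 without. It rose with auxin at 35 days (2.84 ± 0.32 SE, 3 arrays per group, limma adjusted p = 2.2e-06) and at 7 days (1.54 ± 0.32, limma adjusted p = 6.9e-04). It was also higher at 35 than at 7 days with auxin (2.91 ± 0.32, limma adjusted p = 8.5e-06) and without (1.60 ± 0.32, limma adjusted p = 7.8e-04). Its response was larger at 35 days by 1.3 ± 0.45 (limma adjusted p = 0.036), the opposite sign to WRKY6, WRKY53 and SAG101. That difference missed the threshold when any array was left out other than array 3 of the 35-day auxin, 35-day untreated and 7-day auxin groups and array 2 of the untreated 7-day group (1.00 to 1.29, limma adjusted p between 0.0676 and 0.0915).

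GRX480, a glutaredoxin gene of the salicylic acid response, was the 1 measured gene of 29 in that list. It was higher at 35 days without auxin (2.18 ± 0.18 SE, 3 arrays per group, limma adjusted p = 3.1e-07) and with auxin (1.56 ± 0.18, limma adjusted p = 1.9e-05). Its auxin change was −0.69 ± 0.18 at 35 days, which was not called with the 4 low-bioC arrays left out (−0.24, limma adjusted p = 0.374), with reference genes set equal (−0.35, limma adjusted p = 0.0993) or with quantiles normalised again (−0.45, limma adjusted p = 0.106). At 7 days it was −0.07 ± 0.18 (limma adjusted p = 0.8).

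EIN3, a transcription factor of the ethylene response that promotes leaf senescence, fell with auxin at 35 days (−0.99 ± 0.09 SE, 3 arrays per group, limma adjusted p = 2.4e-07) and at 7 days (−0.92 ± 0.09, limma adjusted p = 4.9e-07). PPDK, an enzyme that serves nitrogen remobilisation in ageing leaves, fell by 1.76 ± 0.16 and 1.93 ± 0.16 on the log2 scale at the same ages (limma adjusted p = 2.4e-07 and 8.6e-08). These falls ran opposite to the rise of WRKY6 and WRKY53. NOL, a chlorophyll b reductase gene, fell with auxin at 35 days (−0.65 ± 0.08, limma adjusted p = 1.1e-05) and at 7 days (−0.29 ± 0.08, limma adjusted p = 0.0082). The call at 7 days was lost with reference genes set equal, where the sign turned (0.07, limma adjusted p = 0.504), and with the 4 low-bioC arrays left out (−0.25, limma adjusted p = 0.155). The bZIP gene EEL had a change of −0.04 ± 0.12 at 35 days, which was not called (limma adjusted p = 0.79), and fell at 7 days (−0.65 ± 0.12, limma adjusted p = 3.0e-04). With reference genes set equal EEL was called higher at 35 days (0.30, limma adjusted p = 0.0199). Its response differed between ages by 0.60 ± 0.17 (limma adjusted p = 0.013), a call lost with the 4 low-bioC arrays left out (0.67, limma adjusted p = 0.138). The nitrate transporter gene NRT2.5 was not called in any of the 5 comparisons, with changes of −0.14 to 0.27. With reference genes set equal, both auxin changes were called, 0.49 at 35 days and 0.63 at 7 days with auxin, and the change at 7 days also without array 1 of the untreated group (0.41, limma adjusted p = 0.00943).

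The genes of most similar pattern were taken as the 5 of highest Pearson correlation with each regulator over the 12 arrays, among probe sets with 1 gene. The 12 points fall into 4 groups, so these values mostly reflect the group means. For WRKY6 they were AT5G52450 (0.997), AT4G25900 (0.996), TBL39 (0.995), AT3G27400 (0.992) and AT4G22470 (0.992). Of the 5, AT4G22470 had the largest change with auxin at 7 days (4.94 ± 0.22), beside 1.63 ± 0.22 at 35 days. For WRKY53 they were SDH1-1, a subunit gene of mitochondrial succinate dehydrogenase (0.990), AT1G25530 (0.989), AT5G25170 (0.987), ATC, a relative of the flowering inhibitor TFL1 (0.986), and AT1G31850 (0.984). ATC rose by 2.21 ± 0.18 at 35 days and by 3.27 ± 0.18 at 7 days.

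For SAG101 the 5 genes were AT5G59490 (0.977), AT5G42840 (0.966), AT4G02630 (0.964), AT5G24010 (0.959) and BZIP60, a transcription factor of the unfolded protein response (0.959). All 5 fell with auxin at 35 days, by values between −1.27 ± 0.11 in AT5G42840 and −0.42 ± 0.08 in BZIP60. All 5 rose at 7 days, by values between 0.24 ± 0.08 in BZIP60 and 0.92 ± 0.10 in AT4G02630. The genes were chosen for likeness to SAG101 on these same arrays, so these directions came with the choice and are no separate result. No gene appeared in the lists of 2 regulators.

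**Figure D5:**
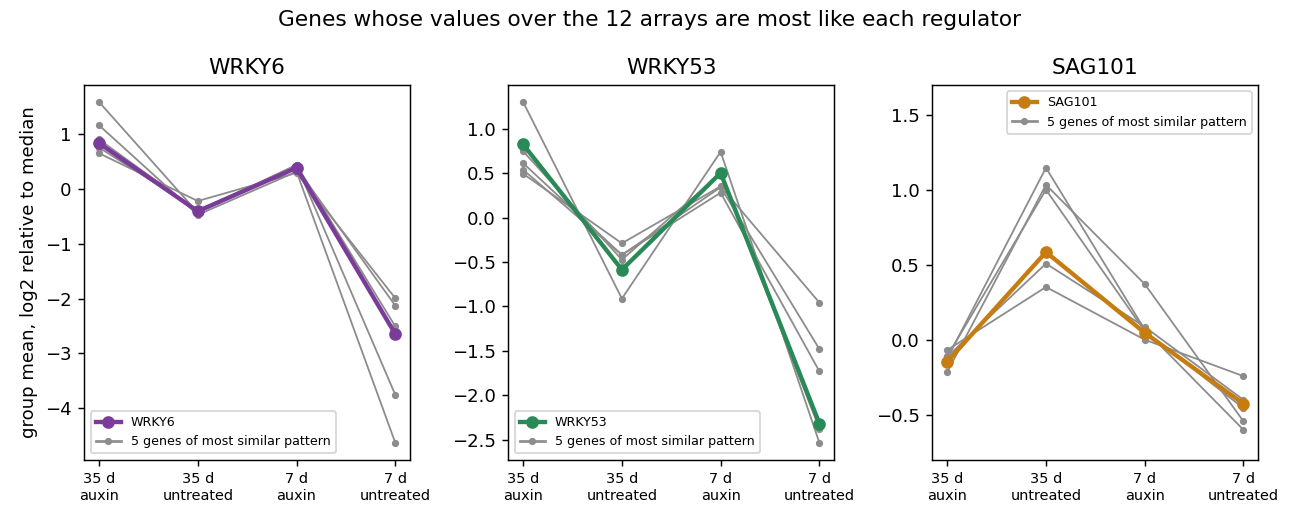
Group means (vertical axis, log2 relative to the median) of each regulator (coloured) and of its 5 genes of most similar pattern (grey) over the 4 groups. The grey lines for WRKY6 and WRKY53 drop in untreated 7-day hypocotyls, and those for SAG101 peak in untreated 35-day hypocotyls.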

How the data were processed

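Total RNA of hypocotyls was labelled with biotin and hybridised to 12 Affymetrix arrays, 3 for each of 4 groups, per the labels' protocols. The deposited values come from RMA, per the submitters' processing notes, which give no version. Neither the log base nor the centring is stated, and the deposited values are read as log2 because RMA gives it. In all 22810 probe sets the median over the arrays is 0, so only differences between arrays are kept, and dim probe sets could not be filtered. The 64 controls were left out, and the number of arrays limits the precision.

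One limma model (version 3.58.1, R version 4.3.3) with 4 groups was fitted to 22746 probe sets, with 8 residual degrees of freedom. Tests were two-sided, and a probe set was called at a Benjamini-Hochberg adjusted p under 0.05. On simulated arrays of the comparison of auxin at 7 days, 96% of probe sets changed by 1 and 100% of those changed by 2 on the log2 scale were recovered among 22746. Changes were added there to a small part of the probe sets, on noise drawn independently for each probe set and array. In the data far more probe sets were called, so these shares do not give the recovery in this experiment. P-values weigh the difference between group means against the spread between arrays within groups, with 1 estimate of that spread shared by the 4 groups.

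Genes were named from the array annotation, with loci and synonyms from the RefSeq table (TAIR10.1). FDH was removed from the epidermis list because the annotated locus is formate dehydrogenase. The members and lists were chosen with earlier results of these data known. The named genes are the 3 members, the measured genes of the lists and, for each member, 5 genes of most similar pattern. Every measured gene of the lists is named, also those not called, since few were measured. The promoter and protein searches of the plan were not made here. Same-numbered arrays of the 2 auxin groups deviated together (correlations 0.250, 0.158 and 0.122). In every other pair of groups at least 1 number had a correlation under 0.1, the value taken here to mark pairing. By this measure alone the numbers may pair the arrays of the auxin groups, which the labels do not say. Control signals also split by number in both untreated groups, with arrays 1 and 2 below array 3 in bioC and 25S. On arrays 1, 2 and 3, 25S was −2.46, −2.22 and −1.06 at 35 days and −2.19, −2.56 and −1.06 at 7 days. The main model had no term for the numbers, so its p-values take no account of such pairing. Alternatives were other scalings, a replicate block, other estimates of the spread, array weights, leaving out arrays, and testing probe sets with 1 gene alone.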

Additional observations from a re-analysis of the deposited data

Results flagged for a closer look

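The auxin response was lower at 35 days by a direct test of the difference in all 3 genes, where 17.5% of probe sets were called lower. The 35-day response minus the 7-day response was −1.79 on the log2 scale for WRKY6, from responses of 1.24 at 35 days and 3.03 at 7 days. For WRKY53 it was −1.41, from 1.41 and 2.82. For SAG101 it was −1.20, from −0.73 and 0.47, with every array with auxin below every untreated array at 35 days and above every untreated array at 7 days. Groups with and without auxin did not overlap in 64.5% of all probe sets at 35 days and in 64.5% at 7 days.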

How the results depend on the processing

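Over the 21 values of the 3 genes in 7 comparisons, 459 alternative values were computed, and 447 kept their direction and their side of the threshold. None reversed. In a comparison of 2 groups, leaving out an array of another group cannot move the value, only its adjusted p. Those alternatives could therefore not reverse, and the same holds for other estimates of the spread. For WRKY6 at 35 against 7 days with auxin the value was 0.45 with no empirical Bayes (adjusted p = 0.0619) and lay between 0.36 and 0.54 without single arrays. For WRKY53 in that comparison, the value of 0.32 was called in the fit of the auxin groups alone (limma adjusted p = 0.0357). Leaving out the 4 low-bioC arrays takes the spread from the same auxin arrays, so for this comparison it repeats that fit and is no second result. For SAG101 at 35 days with auxin against untreated 7-day hypocotyls, the values that lost the call were 0.24 with array medians set equal, 0.14 with quantiles normalised again, and 0.26 without the 4 arrays; without single arrays it lay between 0.18 and 0.36. Counts of called probe sets moved by over 1.5 times in 9 of 153 alternatives. Without the 4 arrays they were 5574 for age without auxin (10386 as reported) and 4336 for the difference of responses (7962). Testing probe sets with 1 gene alone, which are fewer, gave 7514 for auxin at 35 days (13632), 7334 at 7 days (13440), 5484 for age without auxin, 3226 for age with auxin (6206), 4064 for the difference of responses, 7778 for 35 days with auxin against 7 days untreated (14150) and 7498 for 35 days untreated against 7 days with auxin (13797). With reference genes set equal the last 2 comparisons split into 15883 higher and 4056 lower (7830 and 6320 as deposited), and 4786 higher and 12893 lower (6347 and 7450). With the replicate block no call of the 3 genes changed; WRKY6 at 35 against 7 days with auxin stayed at 0.45 (limma adjusted p = 0.0334), and the block gave 6462 calls there. The alternatives for the last 2 comparisons were chosen after seeing the data. A fit of only the groups of a contrast equals the full fit for the difference of responses and was not run there. The table holds no signal over background, so dim probe sets could not be told from bright ones.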
